A study of Mus musculus with 6 samples.

Results

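Retinoic acid (RA) is a vitamin A derivative that acts through nuclear receptors, and the genes for 4 of these receptors and for 6 RA-responsive genes of myeloid cells were examined in bone marrow-derived dendritic cells (BMDCs) with and without Nfkb2. The 10 genes were chosen by name. They were the receptor genes Rara, Rarb, Rarg and Rxrb and the responsive genes Asb2, Tgm2, Cd38, Hic1, Nrip1 and Cyp26b1, among 56748 Ensembl gene IDs counted and 21849 genes tested. All 10 passed the filter on low counts.

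RA receptors (RARs) bind DNA as pairs with retinoid X receptors (RXRs), at elements built from a short hexamer that is repeated with a fixed spacing. Without RA the pair holds co-repressor proteins, and RA exchanges these for co-activators, so that genes such as Rarb and those of the RA-degrading Cyp26 family are induced by the signal that they transmit or remove. Dendritic cells of the gut make RA with the enzyme Raldh2, and the RA promotes regulatory T cells and gut homing of lymphocytes.

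The study asked how the noncanonical NF-κB pathway, in which the Nfkb2 product p100 is processed to p52, affects dendritic cells. RNA-seq was carried out on unstimulated BMDCs from C57BL/6 WT mice and from global Nfkb2-/- mice, with 3 libraries per genotype that the study describes as independent biological replicates. Bone marrow cells of both genotypes were grown for 5 days in GM-CSF at 20 ng/ml and for 4 further days in GM-CSF with IL-4 at 10 ng/ml, 9 days in all. The deletion was present in all cells of the donor mice. The study's methods describe collecting non-adherent cells from BMDC cultures on the last day, and the labels name no sort. In bulk RNA of this kind, fewer cells of a type and less RNA per cell cannot be told apart.

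Total counts ranged from 29863927 to 55623068 per library. Nfkb2 itself, in counts scaled to library size (CPM), stood at 215, 154 and 355 in WT and at 44.8, 32.3 and 32.7 in Nfkb2-/- BMDCs, lower in all 3 as labelled. Nfkb2-/- replicate 1 stood apart, with 47952 IDs that had at least 1 count against 27692 to 33841 in the other libraries. Of the 12 dendritic cell markers, all passed the filter, with summed levels of 6661 to 11860 CPM in WT and 9208 to 10213 CPM in Nfkb2-/- BMDCs. Within that list Itgax, the gene of CD11c, was called higher (187 ± 80.1 CPM in WT, 743 ± 26.6 in Nfkb2-/-, SD, n = 3 each, edgeR adjusted p = 0.0414), and Mgl2, named after its values were seen, did not overlap between the genotypes (156 ± 132 and 665 ± 58.0 CPM, adjusted p = 0.162). Log2 fold changes were positive for 7 of these 12 markers and negative for 5. In 3 of the 12 all Nfkb2-/- libraries lay above all WT libraries, against 12.7% of all genes. In 1 they lay below, against 12.0%. That gene, Zbtb46, was also named after its values were seen (log2 fold change -0.54, adjusted p = 0.192 in edgeR). Of the 12 macrophage markers, 11 passed, with summed levels of 178 to 1222 CPM in WT and 634 to 851 CPM in Nfkb2-/- BMDCs.

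Asb2 and Nrip1 were the genes of this set whose genotypes did not overlap. Asb2 was higher in each Nfkb2-/- library than in any WT library, and Nrip1 was lower. Rara, Rarg, Rxrb, Tgm2 and Cd38 lay at overlapping levels, and Rarb, Hic1 and Cyp26b1 had low counts that were largest in Nfkb2-/- replicate 1. None of the 10 genes was called differentially expressed, which required a fold change over 1.2 and a Benjamini-Hochberg adjusted p-value under 0.05 by the quasi-likelihood test of edgeR. In the same test, run over all genes, 248 of 21849 genes, or 1.14%, were called. DESeq2 called 1 of the 10 genes, Nrip1, where it called 8.60% of all genes, and limma voom called 0, where it called 2.23%. Genes without overlap between the genotypes made up 24.7% of all genes and 2 of the 10 genes here. An unadjusted p under 0.05 was reached by 17.1% of all genes and by 4 of the 10, namely Asb2, Nrip1, Rarb and Cyp26b1. The log2 fold change was positive for 7 genes and negative for 3, with a median of 0.29 against 0.076 over all genes tested.

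**Figure D1:**
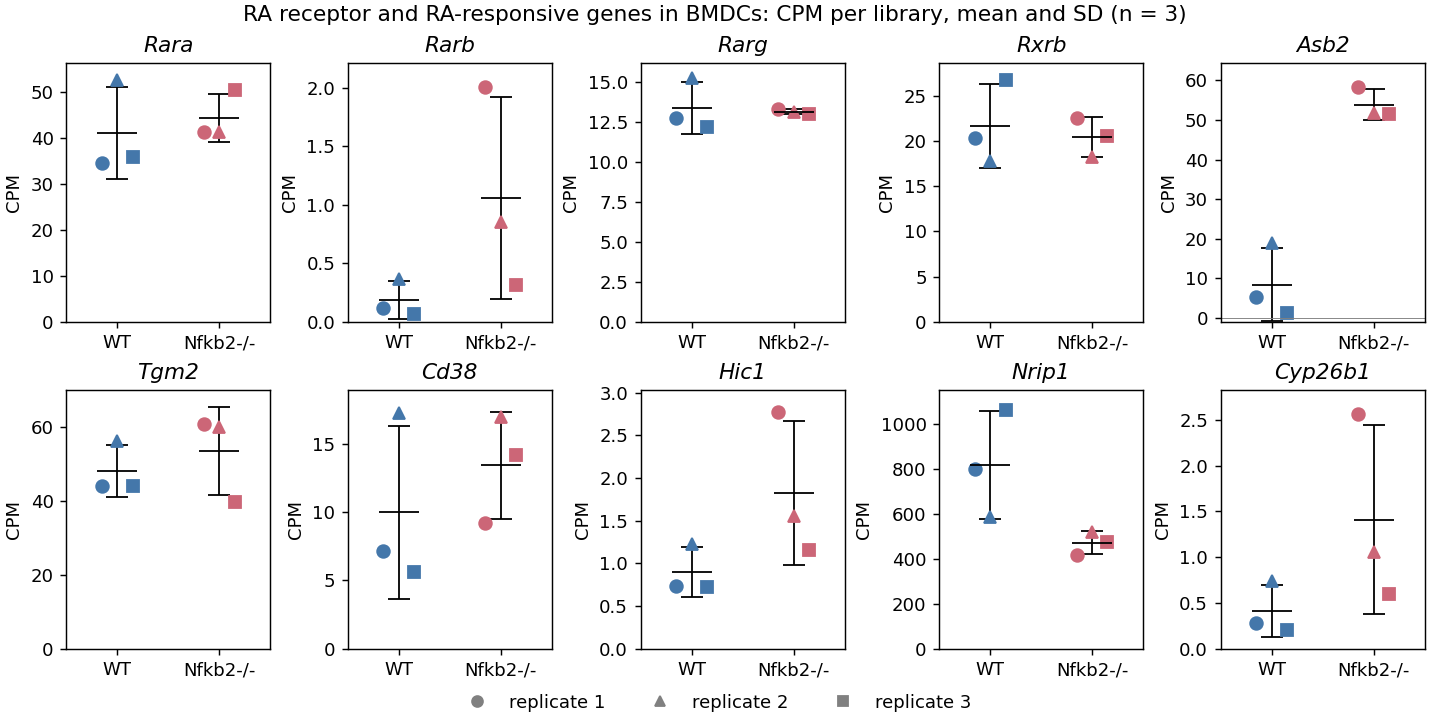
Level of each gene in CPM (linear axis, one scale per gene) in the 3 WT and 3 Nfkb2-/- libraries, with the mean and SD of each genotype as bars and replicate numbers as symbols. Asb2 lies at 51.5 to 58.3 CPM in Nfkb2-/- against 1.10 to 18.8 CPM in WT BMDCs, Nrip1 lies lower in all 3 Nfkb2-/- libraries, and the other 8 genes overlap.

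Rarb is known as a direct RAR target, and a stretch of its promoter is shown. Among the 17 promoter windows of these genes, it alone held a repeat of the kind RARs bind. Promoter windows from RefSeq (GRCm38.p6), from 250 bases before to 50 bases after each start, were searched on both strands for direct repeats of hexamers. The hexamers were AGGTCA and AGTTCA and, with G in place of the first A, GGGTCA and GGTTCA. The spacer was 1, 2 or 5 bases. The table held 17 windows for 9 of the 10 genes. The match lies at chr14:16575507-16575535 on the minus strand, with the repeat in capitals between bases 53 and 37 before the RefSeq start.
Rarb promoter: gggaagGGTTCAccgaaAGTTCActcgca
The spacer is 5 bases. Such a repeat with a spacer of 5 was found in 0.0974% of all 32851 windows, and any of the 3 spacings in 0.588%, while a single hexamer occurred in 43.7%. In GENCODE M21 the same bases fall in the first exon of shorter Rarb transcripts and in an intron of longer ones. A match is a description of letters and not evidence of a bound site.

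Among the receptors, Rara was the most abundant and did not differ detectably between the genotypes. Rara encodes RARα (chr11:98927818-98974942, plus strand, GRCm38). It measured 34.6, 52.4 and 35.7 CPM in WT replicates 1, 2 and 3 and 41.3, 41.1 and 50.3 CPM in Nfkb2-/- replicates 1, 2 and 3. The Nfkb2-/- values all lay inside the WT range. The means were 40.9 ± 10.0 and 44.2 ± 5.23 CPM (SD, n = 3 each), with a log2 fold change of 0.11 (SE 0.20, 95% interval -0.36 to 0.59) and an edgeR adjusted p of 0.813.

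Rarg, the gene of RARγ (chr15:102234938-102257517, minus strand), was the steadiest gene of the set. It measured 12.7, 15.2 and 12.2 CPM in WT and 13.3, 13.1 and 13.0 CPM in Nfkb2-/- BMDCs. In edgeR the log2 fold change was -0.03 (SE 0.16, 95% interval -0.40 to 0.35, adjusted p = 0.952). The highest and lowest Nfkb2-/- libraries differed by 1.02-fold.

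Rxrb encodes RXRβ, a partner that RARs share with other nuclear receptors (chr17:34031812-34038399, plus strand). Its levels were 20.3, 17.8 and 26.8 CPM in WT and 22.6, 18.2 and 20.5 CPM in Nfkb2-/- BMDCs, again with the Nfkb2-/- values inside the WT range. Its fitted log2 fold change was -0.08 (SE 0.20, interval -0.54 to 0.38, adjusted p = 0.870 in edgeR). For these 3 receptor genes the intervals leave room for changes of up to about 0.6 on the log2 scale in Rara and less in Rarg and Rxrb.

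Rarb was the only receptor gene with a large fitted change, and it rested on few reads. Rarb encodes RARβ (chr14:16430839-16819156, minus strand). The raw counts were 5, 12 and 2 in WT and 68, 26 and 17 in Nfkb2-/- BMDCs, or 0.119, 0.369 and 0.0688 CPM against 2.01, 0.857 and 0.318 CPM. Nfkb2-/- replicate 3 lay below WT replicate 2, so the genotypes overlapped. The log2 fold change was 2.49 (SE 0.94, interval 0.29 to 4.70), with an unadjusted p of 0.0318 and an adjusted p of 0.236 in edgeR. It fell to 1.61 when Nfkb2-/- replicate 1 was left out and reached 3.43 when WT replicate 2 was.

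The Rarb reads carry a further limit. On the opposite strand, Top2b shares 1793 exonic bases with Rarb, or 34.1% of the Rarb exons, and had 5800 to 16318 counts per library. How the counting treated strand is not given in the sources used here, so reads of the shared stretch cannot be told apart. Top2b had its fewest raw counts, 5800, in Nfkb2-/- replicate 1, where Rarb had its most and the total count was lowest (29863927). The part of Top2b reads in the Rarb counts was not tested.

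**Figure D2:**
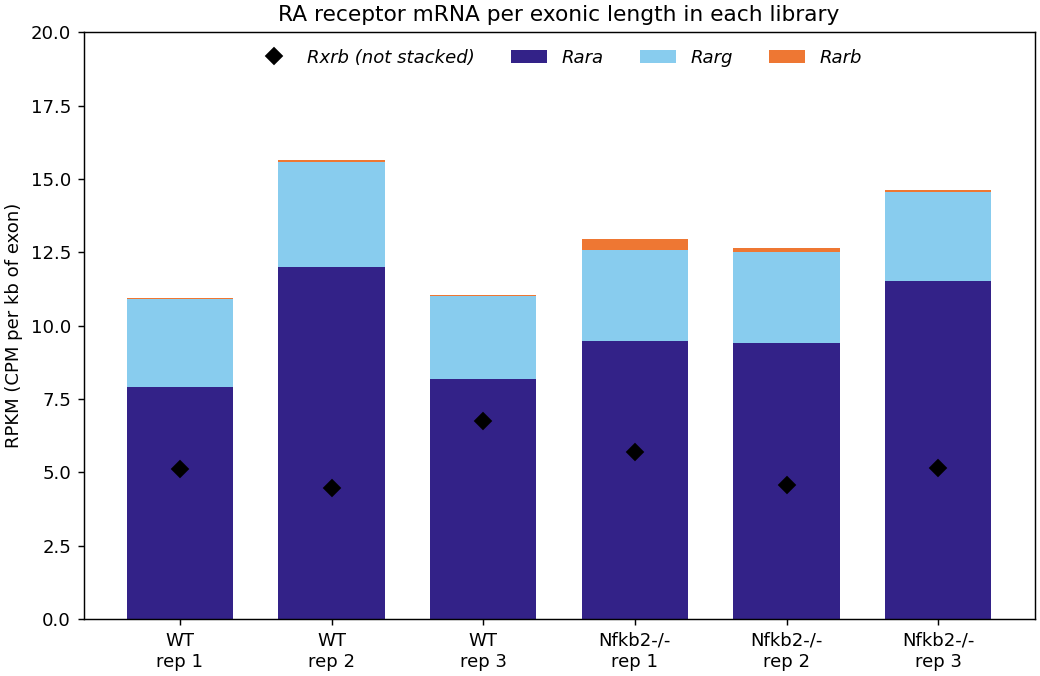
Receptor mRNA per length (RPKM, CPM per kilobase of exon) in each library, with Rara, Rarg and Rarb stacked and Rxrb as diamonds. Rara makes up 72.4% to 78.7% of the RAR sum in every library, and Rarb is a thin layer that is thickest in Nfkb2-/- replicate 1.

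Compared per length of exon, the make-up of the RAR mRNA pool was alike in the 6 libraries. The summed RAR level ran from 10.9 to 15.7 RPKM. Rara held 72.4%, 76.7% and 74.1% of it in WT and 73.0%, 74.4% and 78.7% in Nfkb2-/- BMDCs, a difference of the means of 0.972 percentage points (exact permutation p = 0.6, two-sided, n = 3 each). With 1 library left out it ran from -0.705 (without Nfkb2-/- replicate 3) to 2.18 (without Nfkb2-/- replicate 1), and so changed sign. Rarg held 25.3% ± 2.30 in WT and 23.1% ± 1.92 in Nfkb2-/- BMDCs (SD, n = 3; exact permutation p = 0.3, adjusted over the 3 shares 0.45). Rarb held 0.206%, 0.448% and 0.118% in WT and 2.94%, 1.29% and 0.413% in Nfkb2-/- BMDCs (exact permutation p = 0.2, adjusted 0.45). An exact test of 3 libraries against 3 cannot give a p below 0.1.

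Of the RXR genes, Rxra and Rxrb were measured and Rxrg had too few counts to be tested. Rxrb held 33.3%, 30.0% and 55.4% of the Rxra and Rxrb sum per length in WT and 52.1%, 45.7% and 46.0% in Nfkb2-/- BMDCs. WT replicate 3 was the library that set the WT spread, with the highest Rxrb and the lowest Rxra of its genotype. The difference of 8.38 percentage points had an exact permutation p of 0.4 (two-sided, n = 3 each).

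Asb2 showed the largest fitted change of the 10 genes. It encodes the substrate-binding subunit of a cullin-RING ubiquitin ligase that targets filamins, and was first known as an RA-induced gene of myeloid leukaemia cells (chr12:103321142-103356001, minus strand). The raw counts were 222, 611 and 32 in WT and 1975, 1568 and 2750 in Nfkb2-/- BMDCs. These correspond to 5.27, 18.8 and 1.10 CPM against 58.3, 51.7 and 51.5 CPM. The lowest Nfkb2-/- library was thus well above the highest WT library.

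The Asb2 means were 8.39 ± 9.25 and 53.8 ± 3.92 CPM (SD, n = 3 each), 6.42-fold higher in Nfkb2-/- BMDCs. The spread differed between the genotypes, with 17.1-fold between the highest and lowest WT libraries and 1.13-fold among the Nfkb2-/- libraries. The fitted log2 fold change was 2.68 (SE 0.83, interval 0.74 to 4.62), with an unadjusted p of 0.0135 and an adjusted p of 0.166 in edgeR. Asb2 passed the threshold when WT replicate 2, its highest WT library, was left out (log2 fold change 4.05, adjusted p = 0.0232 in edgeR). Over all alternatives the edgeR, DESeq2 and voom log2 fold changes ran from 2.17 to 4.05. The exact permutation test gave its smallest possible p, 0.1.

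Nrip1 was the most abundant gene of the set and the one that lay lower in Nfkb2-/- BMDCs. It encodes RIP140, a co-regulator that binds RARs and other nuclear receptors when ligand is present and represses their targets (chr16:76287400-76373827, minus strand). It measured 799, 587 and 1064 CPM in WT and 418, 521 and 477 CPM in Nfkb2-/- BMDCs. Every Nfkb2-/- library was below every WT library, though Nfkb2-/- replicate 2 and WT replicate 2 were close.

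The Nrip1 means were 817 ± 239 and 472 ± 51.7 CPM (SD, n = 3 each), 1.73-fold lower in Nfkb2-/- BMDCs. The log2 fold change was -0.79 (SE 0.24, interval -1.36 to -0.23), with an unadjusted p of 0.0126 and an adjusted p of 0.162 in edgeR. DESeq2 called it (adjusted p = 0.0287, log2 fold change -0.81), as did edgeR without WT replicate 2 (-0.98, adjusted p = 0.0455). Without WT replicate 3, the highest library, the log2 fold change was -0.55 with an adjusted p of 0.238 in edgeR. Its direction, lower in Nfkb2-/- BMDCs while Asb2 was higher, held under every alternative run.

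**Figure D3:**
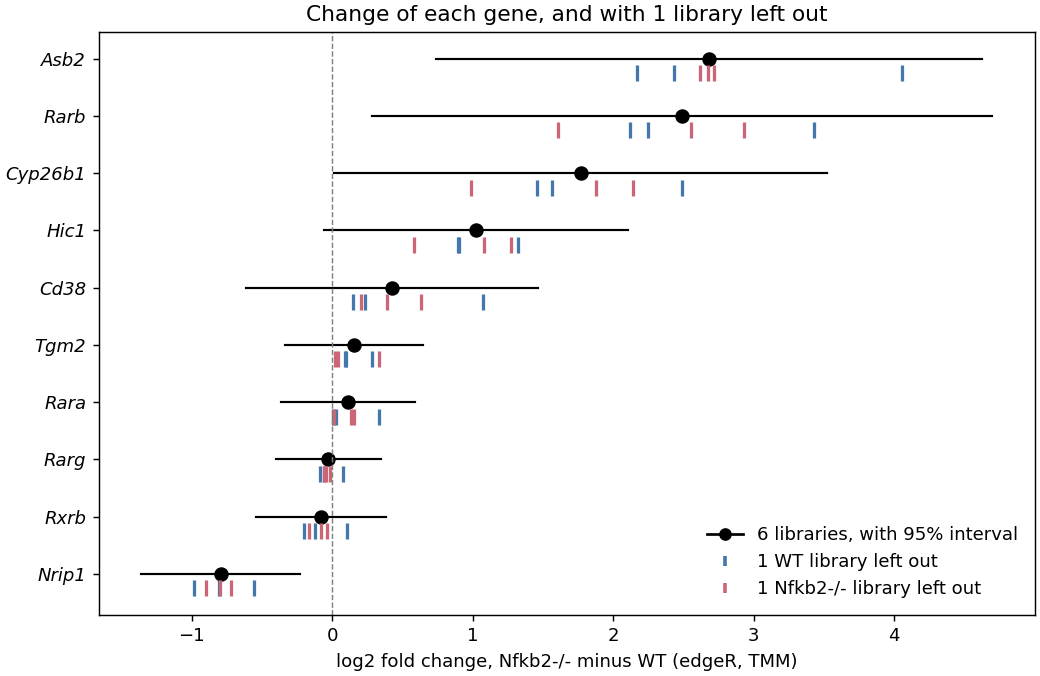
Log2 fold change of each gene, Nfkb2-/- minus WT, from edgeR with its 95% interval (black) and with 1 library left out in turn (coloured ticks, blue for WT and red for Nfkb2-/- libraries). The intervals of Asb2, Rarb, Cyp26b1 and Nrip1 do not include 0, and leaving out 1 library moves Asb2 between 2.17 and 4.05 and Nrip1 between -0.98 and -0.55.

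Cyp26b1 encodes a cytochrome P450 that hydroxylates RA and so clears it (chr6:84571414-84593908, minus strand). It was near the lower limit of detection in WT, with raw counts of 12, 24 and 6, against 87, 32 and 32 in Nfkb2-/- BMDCs. In CPM these were 0.285, 0.738 and 0.207 against 2.57, 1.06 and 0.599. Nfkb2-/- replicate 3 was below WT replicate 2. Its log2 fold change was 1.77 (SE 0.75, interval 0.02 to 3.52), with an unadjusted p of 0.0483 and an adjusted p of 0.288 in edgeR, and it was 0.987 without Nfkb2-/- replicate 1.

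Hic1 encodes a zinc-finger transcriptional repressor (chr11:75164565-75169519, minus strand). It measured 0.735, 1.23 and 0.723 CPM in WT and 2.78, 1.55 and 1.16 CPM in Nfkb2-/- BMDCs, again with Nfkb2-/- replicate 3 below WT replicate 2. Its log2 fold change was 1.02 (SE 0.46, interval -0.06 to 2.11, adjusted p = 0.320 in edgeR), and 0.58 without Nfkb2-/- replicate 1.

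Tgm2 encodes tissue transglutaminase, an enzyme that cross-links proteins (chr2:158116402-158146436, minus strand). Its levels were 44.1, 56.4 and 44.1 CPM in WT and 60.9, 60.1 and 39.9 CPM in Nfkb2-/- BMDCs. The lowest of all 6 libraries and the 2 highest were Nfkb2-/-. Its log2 fold change was 0.15 (SE 0.21, interval -0.34 to 0.64, adjusted p = 0.748 in edgeR). Rprd1b on the opposite strand shares 370 exonic bases, or 8.03% of the Tgm2 exons.

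Cd38 encodes an ectoenzyme that consumes NAD and forms cyclic ADP-ribose (chr5:43868553-43912375, plus strand). It measured 7.12, 17.2 and 5.61 CPM in WT and 9.19, 16.9 and 14.2 CPM in Nfkb2-/- BMDCs. The highest library of each genotype was at a like level, and the genotypes overlapped over most of their range. Its log2 fold change was 0.43 (SE 0.44, interval -0.61 to 1.46, adjusted p = 0.660 in edgeR), and it was 1.07 without WT replicate 2.

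Levels were set in order per length of exon, as the mean RPKM over the 6 libraries. Nrip1 came first at 56.2 RPKM, followed by Tgm2 at 11.1, Rara at 9.75 and Asb2 at 8.78 RPKM. Rxrb at 5.29, Rarg at 3.11 and Cd38 at 3.01 RPKM lay in the middle. Hic1 at 0.363, Cyp26b1 at 0.170 and Rarb at 0.118 RPKM came last. Of the neighbours in this order, Nrip1 and Tgm2, Rxrb and Rarg, and Cd38 and Hic1 had ranges over the libraries that did not overlap, whereas the 6 other neighbouring pairs overlapped.

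The genes also varied among libraries of 1 genotype, and several varied together. WT replicate 2 was the highest and WT replicate 3 the lowest WT library for 6 of the 10 genes (Rarb, Rarg, Asb2, Cd38, Hic1 and Cyp26b1), an order found for 26.1% of all genes tested. Nrip1 and Rxrb had the highest WT value in replicate 3 and the lowest in replicate 2, an order found for 23.6%. Rarb, Hic1 and Cyp26b1 shared 1 order over all 6 libraries, from Nfkb2-/- replicate 1 down through Nfkb2-/- replicate 2, WT replicate 2, Nfkb2-/- replicate 3 and WT replicate 1 to WT replicate 3. This order was noticed in the values and held for 94 of the 21849 genes, or 0.430%, and for 0.590% of genes with a mean under 2 CPM.

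**Figure D4:**
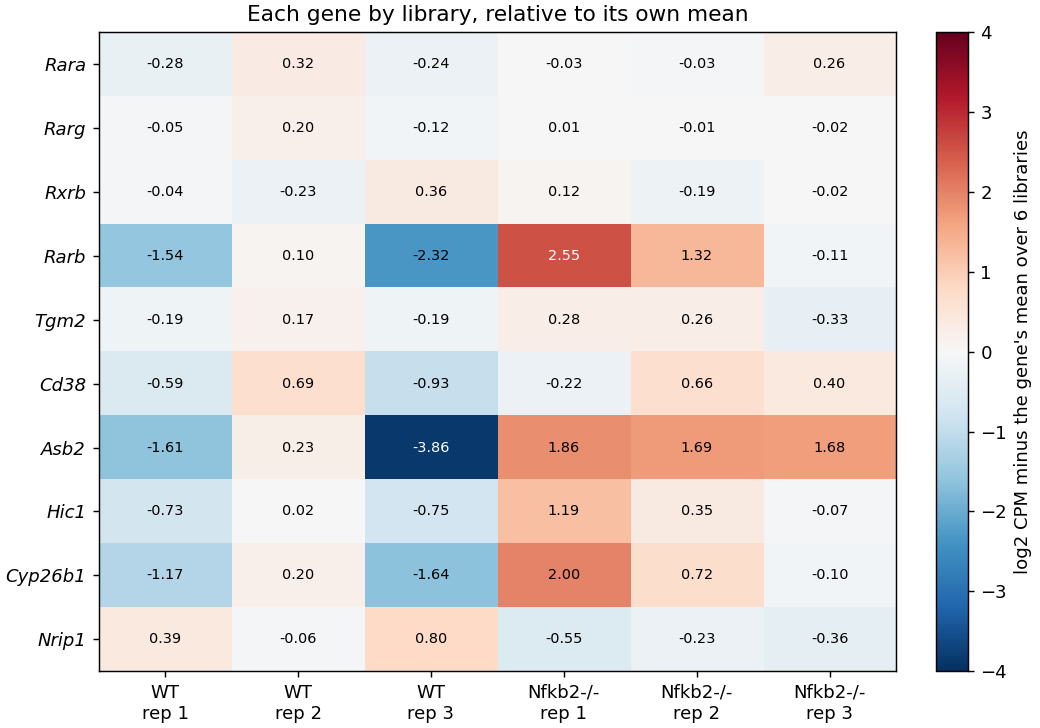
Log2 CPM of each gene in each library, minus the mean of that gene over the 6 libraries (colour, with the value printed in each cell). Asb2 ranges from -3.86 in WT replicate 3 to 1.86 in Nfkb2-/- replicate 1, Rarg stays between -0.12 and 0.20, and Rarb, Hic1 and Cyp26b1 share their highest library, Nfkb2-/- replicate 1.

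Libraries that stood apart moved with these values. Nfkb2-/- replicate 1 was the highest library for Rarb, Asb2, Tgm2, Hic1 and Cyp26b1, and also for 57.0% of the 8646 genes with a mean under 2 CPM but for 14.3% of the 13203 genes at 2 CPM or more. The median log2 fold change was 0.43 over the low genes and -0.019 over the others. Rarb, Cyp26b1 and Hic1 belong to the low genes and Asb2 does not, and the log2 fold change of Asb2 was 2.62 without Nfkb2-/- replicate 1.

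The summed macrophage markers followed the WT order of those 6 genes, with 1067, 1222 and 178 CPM in WT replicates 1, 2 and 3. In Nfkb2-/- BMDCs the sums were 634, 706 and 851 CPM, inside the WT range. Among these markers Apoe, a lipid carrier named after its values were seen, measured 82.3, 56.5 and 3.68 CPM in WT and 2.25, 0.725 and 0.898 CPM in Nfkb2-/- BMDCs (log2 fold change -5.21, adjusted p = 0.0770 in edgeR, called by DESeq2). It was the only 1 of the 11 tested with all Nfkb2-/- libraries below all WT libraries, against 12.0% of all genes. Log2 fold changes were positive for 4 of the 11 macrophage markers and negative for 7. Markers of stromal cells (11 of 12 tested) summed to 70.1, 24.9 and 4.78 CPM in WT and 62.7, 49.4 and 49.4 CPM in Nfkb2-/- BMDCs. Granulocyte markers (11 of 12) summed to 286, 440 and 109 CPM in WT, in the WT order of the macrophage markers. In Nfkb2-/- BMDCs they ranged from 153 to 189 CPM. The dendritic cell sums of 8566, 6661 and 11860 CPM in WT replicates 1, 2 and 3 had the WT order of Nrip1 and Rxrb. Mast cell and basophil markers (7 of 10) ranged from 46.6 to 57.0 CPM in WT and from 50.9 to 58.2 CPM in Nfkb2-/- BMDCs. By edgeR 1 stromal marker, Lepr, was called higher (log2 fold change 3.09, adjusted p = 0.0478) and 1 mast cell marker, Cpa3, lower (-1.84, adjusted p = 0.0413). Over all genes 1.14% were called. Log2 fold changes were positive for 8 stromal markers and negative for 3. They were positive for 3 mast cell and basophil markers and negative for 4. Lymphoid markers (7 of 10) summed to 0.895 to 1.45 CPM in WT and 1.14 to 7.27 CPM in Nfkb2-/- BMDCs. Of the defining markers Csf1r and Adgre1 were present in every library. The part of these cells in the results was not tested.

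Genes around the receptors were described by lists. Of 26 genes of RA synthesis, storage and transport, 17 were tested and 1 was called by edgeR, against 1.14% of all genes. Aldh1a2, the gene of Raldh2, rose from 45.9, 94.4 and 92.4 CPM in WT to 438, 467 and 342 CPM in Nfkb2-/- BMDCs (log2 fold change 2.42, SE 0.31, edgeR adjusted p = 0.0307). The call was lost without WT replicate 1 or any 1 of the Nfkb2-/- libraries, with log2 fold changes of 2.15 to 2.55 and edgeR adjusted p of 0.0876 to 0.163. DESeq2 called 6 of the 17 genes, 5 higher and 1 lower, and limma voom 3, against 8.60% and 2.23% of all genes. In 5 of the 17, Aldh1a2, Rdh11, Dhrs9, Rbp4 and Crabp2, all Nfkb2-/- libraries lay above all WT libraries, as for 12.7% of all genes. In 2, Rdh5 (log2 fold change -1.27, adjusted p = 0.0625 in edgeR, called by DESeq2 and voom) and Dhrs4 (-0.54, adjusted p = 0.399), they lay below, as for 12.0% of all genes. Apart from Aldh1a2 these genes were named after their values were seen, and none of them passed edgeR's test. The abundant Fabp5, a fatty acid and RA carrier, and Dhrs3, a retinal reductase, had log2 fold changes of -0.15 and -0.44 with adjusted p of 0.853 and 0.479 in edgeR.

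RA-degrading enzymes were at low levels. Besides Cyp26b1, Cyp26c1 and Cyp2s1 were tested, and Cyp26a1 was not. Cyp2s1, a P450 that can oxidise RA, measured 1.64, 4.37 and 0.275 CPM in WT and 11.8, 7.85 and 10.2 CPM in Nfkb2-/- BMDCs (log2 fold change 2.25, SE 0.75, adjusted p = 0.192 in edgeR). Its Nfkb2-/- libraries all lay above all WT libraries, as for 12.7% of all genes. The WT order was that of Asb2, an order found for 26.1% of all genes tested. None of the 3 genes was called by edgeR or limma voom, while DESeq2 called Cyp2s1, where it called 8.60% of all genes. In edgeR 2 of the 3 had an unadjusted p under 0.05, against 17.1% of all genes. All 3 log2 fold changes were positive.

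Of 16 RXR genes and partner receptors, 13 were tested, Rxrb among them, and none was called by edgeR (4 at an unadjusted p under 0.05) or limma voom. DESeq2 called 1, Nr4a2, an orphan nuclear receptor. Over all genes, 17.1% had an unadjusted p under 0.05 in edgeR and 8.60% were called by DESeq2. Rxra measured 55.9, 56.9 and 29.6 CPM in WT and 28.5, 29.7 and 33.1 CPM in Nfkb2-/- BMDCs, so that WT replicate 3 lay with the Nfkb2-/- libraries (log2 fold change -0.64, SE 0.26, adjusted p = 0.266 in edgeR). Vdr, the vitamin D receptor, had a log2 fold change of 0.42 (adjusted p = 0.284). The median over the 13 genes was -0.08.

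Of 19 co-repressors and co-activators of RARs, Nrip1 among them, all were tested and none was called by edgeR (6 at an unadjusted p under 0.05) or limma voom. DESeq2 called 3, Nrip1 among them. The shares over all genes were 17.1% at an unadjusted p under 0.05 in edgeR and 8.60% called by DESeq2. Negative log2 fold changes were found for 17 and positive ones for 2, with a median of -0.17 against 0.076 over all genes. In 7 of the 19, Nrip1 included, all Nfkb2-/- libraries lay below all WT libraries, against 12.0% of all genes, and in 1, Prmt1, they lay above, against 12.7%. Tbl1x, a subunit of the co-repressor complex, had a log2 fold change of -0.42 (adjusted p = 0.253 in edgeR) and the co-activator Ncoa3 one of -0.02 (adjusted p = 0.964).

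Of 30 other genes known to respond to RA in some cell type, 25 were tested. By edgeR 1 was called, in the downward direction, against 1.14% of all genes. Irf1, an interferon-regulated transcription factor, fell from 24.4, 19.4 and 29.9 CPM in WT to 10.7, 10.8 and 11.2 CPM in Nfkb2-/- BMDCs (log2 fold change -1.17, SE 0.19, adjusted p = 0.0461 in edgeR). That call was kept without WT replicate 2 and lost when any other library was left out, with the same direction and edgeR adjusted p of 0.0510 to 0.222. DESeq2 called 5 of the 25 and limma voom 3, against 8.60% and 2.23% of all genes. Of these calls DESeq2 had 2 higher and 3 lower, and limma voom 1 higher and 2 lower. Both called Irf1 and Tnfaip2 lower (Tnfaip2 log2 fold change -1.27, adjusted p = 0.0625 in edgeR). Both also called Itgae, an integrin gene, higher (log2 fold change 1.92, adjusted p = 0.0735 in edgeR). Itgae and Tnfaip2 were named after their values were seen. Log2 fold changes were positive for 17 and negative for 8, with a median of 0.087. Cdkn1a, a cell cycle inhibitor and the most abundant of the list per length, had a log2 fold change of -0.02 (adjusted p = 0.976).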

How the data were processed

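RNA-seq of polyadenylated RNA was analysed from 3 WT and 3 Nfkb2-/- BMDC libraries, grouped by the sample labels. The authors deposited raw counts per Ensembl gene, 1 table per library, without normalization. The submitters' processing notes name HISAT2 and GRCm38 (mm10), and the counting tool, annotation and use of strand are not given in the sources used here. Names and exons came from GENCODE M21, which names 52073 of the 56748 IDs. Counts without a name, 1.01% to 1.75% per library, were left out.

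Genes whose counts summed to 50 or more were tested with edgeR 4.0.16 in R 4.3.3 (TMM, glmQLFit, glmQLFTest, Benjamini-Hochberg adjustment). Levels are TMM-scaled CPM, and RPKM divides these by the union of exons. The SE is the log2 fold change over the square root of F. At this depth 3 counts lie near 0.1 CPM, and intervals rest on the spread between libraries. DESeq2 1.42.0, limma voom (3.58.1), other scalings and filters, a replicate block and each library left out were alternatives. The fit was tested on simulated data.

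The 10 genes, the gene lists and the alternatives were chosen with earlier results of these data known. Named are the 10 genes, Nfkb2, list genes that were called, and otherwise up to 3 of the most abundant per list, and any other gene was named after its values were seen. Receptor protein sequences were not used here. The deposited table that joins the libraries was not used.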

Additional observations from a re-analysis of the deposited data

How the results depend on the processing

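Of 138 log2 fold changes of the 10 genes under alternatives, 130 kept their direction and side of the threshold, 4 passed it (Asb2 and Nrip1) and 4 reversed. Rarg reversed with total counts without TMM (0.057) and without WT replicate 2 (0.078, in a range from -0.087 with 1 library left out), and Rxrb with total counts without TMM (0.036) and without WT replicate 3 (0.10, in a range from -0.20), all beside values near 0. Total counts without TMM raised the median of all genes to 0.17, and no filter beyond 1 count in any library raised it to 0.60. DESeq2 called 1 of the 10 genes (Nrip1), the filter of 1 count called 1 (Asb2), and leaving out 1 library called 0 to 2 (both without WT replicate 2). The cause was not tested.

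The count over all genes, 248 with edgeR, was 1878 with DESeq2, 488 with voom, 397 with filterByExpr, 1625 with the filter of 1 count, 459 with at least 10 counts in every library (which removed Rarb and Cyp26b1), and 808 at an adjusted p under 0.1. Leaving out 1 library gave 0 to 1248. It was 0 without WT replicate 1 or any Nfkb2-/- library (2325 to 4088 genes at an unadjusted p under 0.05). With the replicate number as a block it was 0 (3331 unadjusted), and 0 of the 10 genes, and Aldh1a2 (adjusted p = 0.0594) and Irf1 (0.0848) missed the threshold. Whether the numbers pair the samples is not settled here. With the genotype means removed, same-numbered libraries had correlations of 0.262, 0.148 and 0.0224, and differently numbered ones -0.237 to 0.164. Nfkb2-/- replicates 1 and 2 correlated best with the WT library of their number. Nfkb2-/- replicate 3 correlated best with WT replicate 2 (0.164). With Rxr genes added to the sum, the difference in the Rara share was 7.005 percentage points (exact permutation p = 0.1).

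The comparison had 3 libraries per genotype and a wide WT spread. The edgeR intervals of Rara, Rarg, Rxrb and Tgm2 left room for changes of up to about 0.6 on the log2 scale. That value is not a limit of detection, because a call rested on the adjusted p-value. Nrip1, with a log2 fold change of -0.79 (SE 0.24), was not called by edgeR (adjusted p = 0.162). Changes larger than 0.6 could therefore also go uncalled. Rarb, Hic1 and Cyp26b1, at low counts, were not called and had wide intervals, 0.29 to 4.70 for Rarb. In the same fit 15 of the 8646 genes with a mean under 2 CPM were called.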
